A study of Arabidopsis thaliana with 6 samples.

Results

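This account covers the genes of 3 enzyme families, the cytochrome P450s, the aldehyde dehydrogenases (ALDHs) and the glutathione S-transferases (GSTs), in expanding rosette leaves of Arabidopsis thaliana. Members were the genes whose symbol in the array's gene table follows the CYP, ALDH or GST naming pattern and which that table pairs alone with a probe set. This gave 45 of 13356 named genes on the array, with 1 probe set each: 22 P450s of the CYP71 clan, 1 other P450, 8 ALDHs and 14 GSTs. The RefSeq gene table of assembly TAIR10.1 holds 314 genes with such a name, so the 45 are a part of these families and the others are not analysed here. The array's gene table pairs only 13513 of 22810 probe sets with 1 gene, so some of the others may have a probe set without a name. RNA was compared between the Col-0 wild type and a sto2 null mutant, with 3 single-colour Affymetrix arrays for each genotype, described by the submitters as biological replicates. All plants were 3 weeks old and untreated, had grown in soil with 16 h of light at 22 °C and 8 h of dark at 18 °C, and gave leaves 3 to 6. The labels name neither the mutated locus nor the number of plants behind a sample, so the targeted gene was not checked here.

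Cytochrome P450s are haem enzymes that insert an oxygen atom into small molecules, and in plants they make hormones, sterols, phenolics and defence compounds and also detoxify foreign chemicals. The CYP71 clan is the large plant group that holds most specialised metabolism, and its CYP71B genes often lie side by side as tandem copies. ALDHs oxidise reactive aldehydes to carboxylic acids, and GSTs join glutathione to electrophilic compounds or reduce oxidised ones, so the 3 families are often described as successive layers of detoxification. Within the GSTs, the tau (GSTU) and phi (GSTF) classes are particular to plants and respond to herbicides, defence hormones and oxidative stress, and the lambda class (GSTL) acts as a thiol transferase.

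In sto2 leaves the transcript of 1 P450, CYP71B22, rose 4.98-fold, and no other member passed the test in either direction. A reading is in array signal units, and the test was limma on log2(signal + 16) with Benjamini-Hochberg adjustment over all 22746 probe sets and a threshold of 0.05. Over the whole array 0.127% of probe sets passed, 0.0572% as higher and 0.0703% as lower in sto2. The 1 call among 45 genes thus describes CYP71B22 only. At an unadjusted p under 0.05 there were 5 members, or 11.1%, against 14.1% of all probe sets and 13.0% of those with 1 gene. The wild-type and sto2 readings did not overlap in 4 members, or 8.89%, against 19.2% of all probe sets and 17.9% of those with 1 gene. Of these 4, 2 were higher and 2 lower in sto2, against 9.01% and 10.2% of all probe sets. The median log2 difference, sto2 minus wild type, was 0.03 over the 45 members and -0.0081 over all probe sets.

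**Figure D1:**
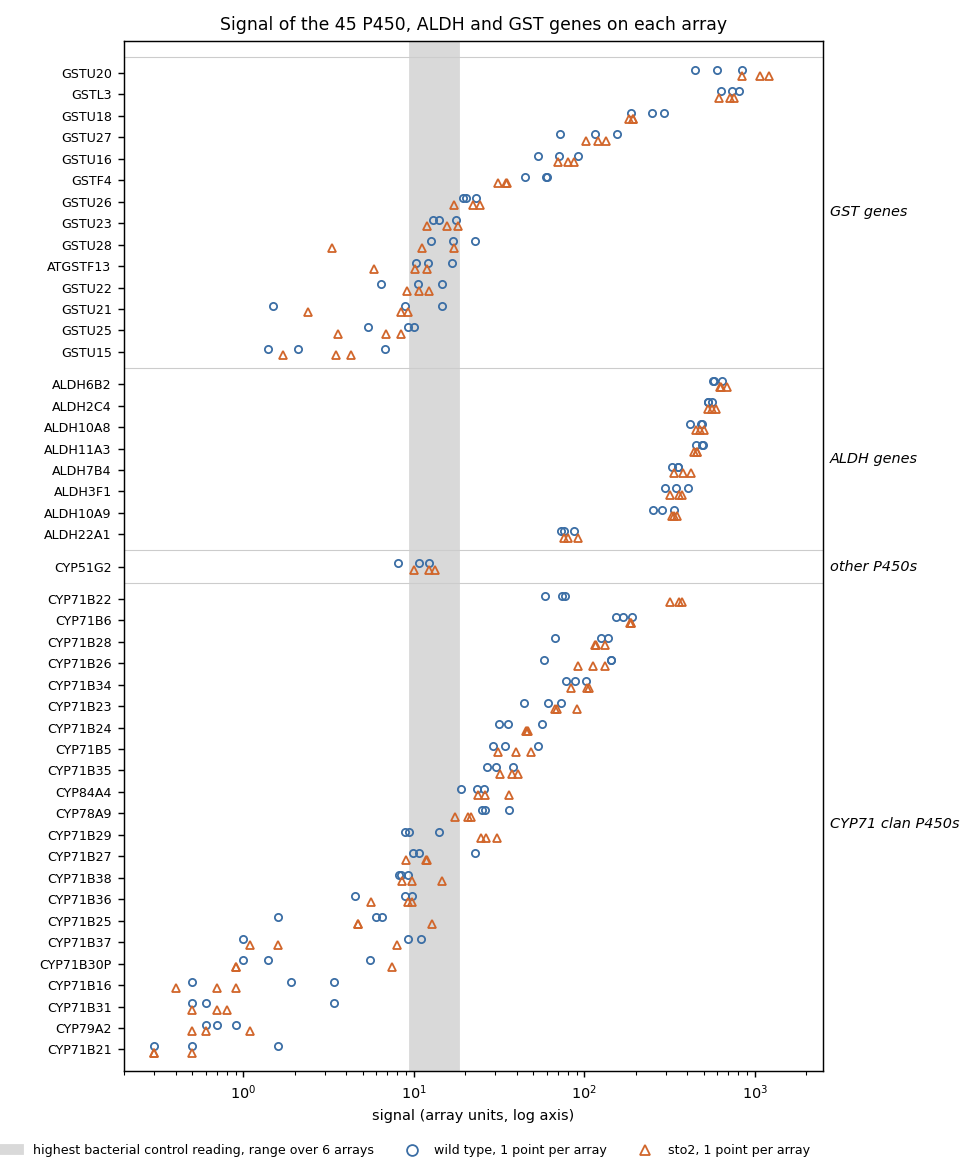
Signal on each array (log axis, array units) for the 45 genes in 4 classes, with 1 circle per wild-type array and 1 triangle per sto2 array; the grey band spans the highest bacterial control reading of each array, 9.5 to 18.4. All 8 ALDH genes lie right of the band, while 8 genes of the CYP71 clan and 3 GSTs lie at or below the control reading of their own array throughout.

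How many members could be read above background differed by family. Background was taken from 27 control probe sets for bacterial transcripts, and a gene counts as above the controls on an array where its signal is higher than all 27 there. All 8 ALDHs were above the controls on all 6 arrays, with readings from 73 to 689.9. In the CYP71 clan 11 of 22 genes were above them on all arrays, 3 on some and 8 on none. Of the 14 GSTs 7 were above on all arrays, 4 on some and 3 on none. Together 26 of 45 members, or 57.8%, were above the controls on all arrays. The share was 62.2% of all probe sets and 57.4% of the probe sets with 1 gene, from which the members come. Probe sets differ in how strongly they hybridise, so these signals do not rank the genes by transcript abundance. In bulk leaf RNA, fewer cells of a type and less RNA per cell cannot be told apart.

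The arrays read as leaf. The 4 measured mesophyll markers RCA, PRK, LHCB4.1 and LHCB4.2 read between 2963 and 5503, and none of them passed between genotypes. The shoot apex markers CLV3 and UFO exceeded the controls on 0 arrays, and the root markers PYK10 and EXPA7 on 1 of 6 each. SPCH and MUTE, of the stomatal lineage, exceeded them on 1 array each, while FMA of the same lineage had a log2 difference of -0.0032. The trichome marker SIM and the phloem marker SWEET11 had log2 differences of -0.24 ± 0.13 and 0.24 ± 0.18 (SE, 3 arrays against 3, limma adjusted p = 0.459 and 0.594). Array medians lay between 37 and 38.5, and the number of arrays, 3 a group, limits the precision. An older pair of actin control probe sets had a log2 ratio of 3' over 5' signal of 2.57 ± 0.06 in wild type and 2.05 ± 0.25 in sto2 (SD, n = 3; 2-sided exact permutation test over samples, p = 0.1, below which 6 arrays cannot go, and adjusted p = 0.6 over 6 ratios). The other 5 ratios differed by -0.08 to 0.05, and the part of RNA quality in the results below was not tested.

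CYP71B22 (AT3G26200) read 58.9, 77.3 and 74 on the wild-type arrays and 356.7, 373.2 and 317 on the sto2 arrays. Every sto2 reading lay far above the highest wild-type one, and all 6 lay above the controls. The means were 70.1 ± 9.81 and 349 ± 28.9 (SD, n = 3 each), a 4.98-fold rise in linear signal. On the log2(signal + 16) scale the difference was 2.09 ± 0.11 (SE), with a 95% interval from 1.82 to 2.35 and a limma adjusted p of 0.00272. Leaving out any 1 array gave differences from 1.99 to 2.15 and adjusted p-values from 0.00919 to 0.0309.

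CYP71B22 belongs to a run of CYP71B genes on chromosome 3. Between AT3G26150 and AT3G26330 the RefSeq table holds 18 CYP71B loci and 6 other loci, and 11 of the CYP71B loci are members. Its neighbour on 1 side, CYP71B21, read 0.3 to 1.6 and stayed at or below the controls on all arrays. The neighbour on the other side, CYP71B23, read 44.1, 72.8 and 61.2 in wild type and 69.2, 90.2 and 67.0 in sto2. The groups of CYP71B23 overlapped, and its log2 difference of 0.29 ± 0.17 (SE) did not pass (limma adjusted p = 0.4899). No protein-coding gene or pseudogene lies between CYP71B22 and either neighbour in the table. Gene order here and below counts only these types of gene.

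Elsewhere in the run none of the measured members passed, and the loci that are not members were not examined here. CYP71B24 read 31.5, 35.7 and 56.4 in wild type and 45.4, 45.8 and 46.8 in sto2, which all fell inside the wild-type range. CYP71B34 and CYP71B35, which directly neighbour each other, had log2 differences of 0.11 ± 0.12 and 0.14 ± 0.11. CYP71B26 read 58.2, 143.6 and 143.3 in wild type and 131.7, 91.3 and 112.2 in sto2. For CYP71B26 the low wild type replicate 1 sets the widest interval of the run, from -0.70 to 0.77. CYP71B16, CYP71B25, CYP71B36 and CYP71B37 were above the controls on 0 arrays. The 10 genes of the run without CYP71B22 had a median log2 difference of 0.07, from -0.23 to 0.29, and their 95% intervals lay between -0.73 and 0.77. Probe sets of close copies can share target sequence, and how far these do was not tested.

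**Figure D2:**
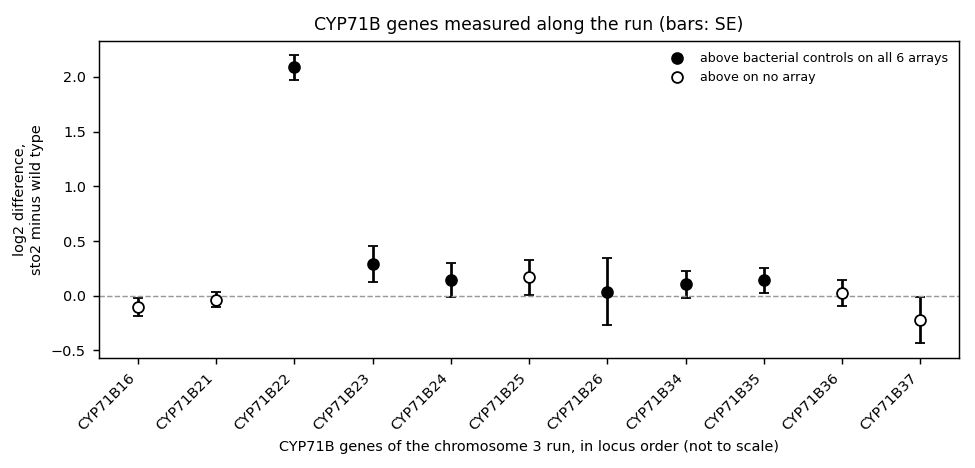
Log2 difference, sto2 minus wild type, of log2(signal + 16) for the 11 measured CYP71B genes of the chromosome 3 run in locus order, with bars of 1 SE; filled points were above the bacterial controls on all 6 arrays and open points on none. CYP71B22 stands at 2.09 and the other 10 genes lie between -0.23 and 0.29.

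The remaining CYP71B genes lie elsewhere, in groups of tandem copies or alone. On chromosome 1, CYP71B29 (AT1G13100) read 9.3, 8.9 and 14.0 in wild type and 26.5, 24.7 and 30.7 in sto2. The groups did not overlap, but only 1 of the 3 wild-type readings exceeded the controls of its array, against all 3 in sto2. The linear means were 10.7 ± 2.84 and 27.3 ± 3.08 (SD, n = 3 each). The log2 difference of 0.70 ± 0.10 (SE) did not pass over all probe sets (limma adjusted p = 0.0754). Its adjusted p was 0.0295 when the probe sets with a mean signal under 14.1, the dimmest 30%, were left out. CYP71B29 stayed in that test only through its sto2 readings, since its wild-type mean was below that level, so the lower p is no support for a change. Its direct neighbour CYP71B28 read 66.9, 125.3 and 136.8 in wild type and 116.2, 117.5 and 131.7 in sto2. The CYP71B28 readings overlapped, with a log2 difference of 0.18 ± 0.23. CYP71B27, marked as a transcribed pseudogene and separated from CYP71B28 by 1 gene, read 9.9 to 22.7 in wild type and 9.0 to 12.0 in sto2.

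A second group on chromosome 3 holds CYP71B5, CYP71B30P and CYP71B31. CYP71B5 read 29.0, 34.4 and 53.8 in wild type and 39.8, 31.2 and 48.6 in sto2, with a log2 difference of 0.03 ± 0.19. The sto2 readings of CYP71B5 thus fell inside the wild-type range. CYP71B30P, whose name marks it as a pseudogene although the RefSeq table lists it as protein-coding, and CYP71B31 were above the controls on 0 arrays. CYP71B38 read 8.2 to 9.2 in wild type and 8.5 to 14.7 in sto2, around the control level. CYP71B6, which oxidises indole-3-acetonitrile on the way to indole carboxylic acids, read 153.2, 168.7 and 189.3 in wild type and 187.5, 186.5 and 184.4 in sto2. Its log2 difference was 0.12 ± 0.09 (SE, limma adjusted p = 0.6001), with an interval from -0.09 to 0.33.

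The 3 clan members outside CYP71B have better known roles. CYP78A9, a relative of the organ growth gene KLUH that promotes fruit and seed growth, read 26.2, 36.1 and 25.1 in wild type and 21.5, 20.9 and 17.5 in sto2. All 3 sto2 readings lay under the lowest wild-type one, at a mean ratio of wild type over sto2 of 1.46. The log2 difference was -0.32 ± 0.11 (SE) and did not pass (limma adjusted p = 0.283). CYP84A4, which hydroxylates a phenolic aldehyde in the synthesis of arabidopyrones, read 23.3, 18.8 and 25.8 in wild type and 26, 36.3 and 23.9 in sto2. Its log2 difference was 0.21 ± 0.13, with overlapping groups. CYP79A2, which makes the phenylalanine-derived oxime for benzylglucosinolate, read 0.5 to 1.1 and was above the controls on 0 arrays. Over the 22 genes of the CYP71 clan the median log2 difference was 0.07, with 15 positive and 7 negative differences. Of the 22, 1 passed. Among all probe sets 10875 had positive and 11871 negative differences. Only 11 of the 22 genes were above the controls on all arrays, and readings at the control level bear no order. Wild type replicate 1 was the lowest wild-type array in 8 of those 11. Without that array the median over the 22 was 0.0066. Outside the clan the only member, CYP51G2, is a relative of the sterol 14-demethylase gene that the RefSeq table marks as a transcribed pseudogene. It read 8.1 to 12.2 in wild type and 10 to 13.3 in sto2, around the control level.

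**Figure D3:**
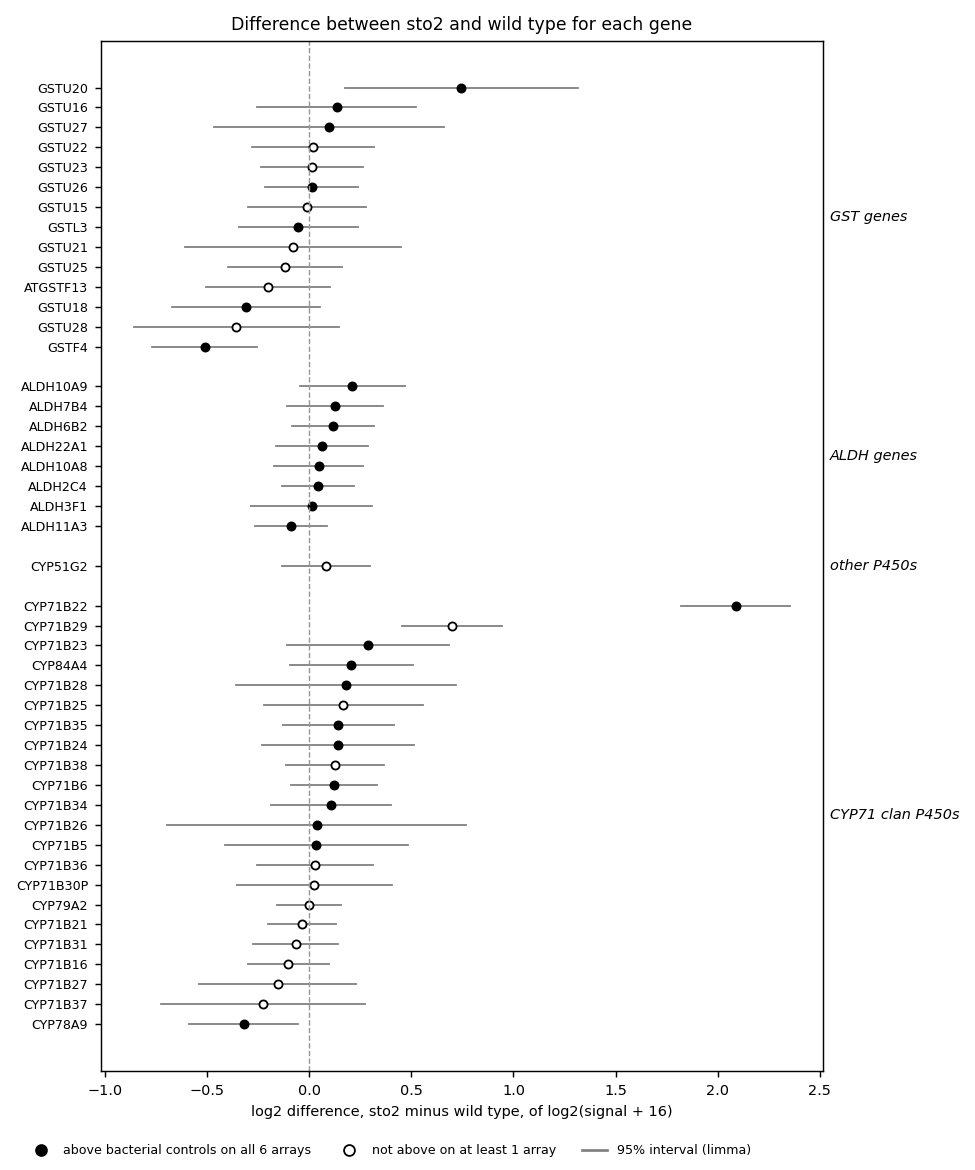
Log2 difference, sto2 minus wild type, of log2(signal + 16) with its 95% interval from limma for all 45 genes, ordered by size within 4 classes; filled points were above the bacterial controls on all 6 arrays. CYP71B22 at 2.09 is the one gene past the adjusted threshold, and the 8 ALDH intervals all lie between -0.29 and 0.47.

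The ALDH genes had small differences between genotypes, with a median size of 0.08 on the log2 scale, against 0.13 in the CYP71 clan, 0.11 in the GSTs and 0.11 over all probe sets. None of the 8 passed, 7 had positive and 1 had a negative difference, and the median log2 difference was 0.05. Their 95% intervals ran from -0.29 at the lowest to 0.47 at the highest. Limma gave the smallest p-value among them to ALDH10A9, with an adjusted p of 0.437 over all probe sets.

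The 2 members of ALDH family 10 oxidise aminoaldehydes such as betaine aldehyde. ALDH10A9 read 252.8, 286.7 and 333.6 in wild type and 337.1, 325.9 and 349.7 in sto2, a log2 difference of 0.21 ± 0.11. Only wild type replicate 3 reached the sto2 readings. ALDH10A8 read 480.8, 415.1 and 491.7 in wild type and 451.6, 477.1 and 502.8 in sto2, with a difference of 0.05 ± 0.09.

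ALDH2C4, which turns coniferaldehyde and sinapaldehyde into ferulic and sinapic acid, read 561.2, 533.5 and 534.6 in wild type and 532.4, 588.7 and 558.6 in sto2. Its spread was the narrowest of the ALDHs in wild type, and its interval ran from -0.13 to 0.22. ALDH6B2, the methylmalonate semialdehyde dehydrogenase of valine breakdown, read 643.9, 579.6 and 570.1 in wild type and 623.2, 689.9 and 633.5 in sto2 (log2 difference 0.12 ± 0.08). ALDH7B4, a stress-responsive antiquitin, read 354.4, 353.4 and 326.1 against 335.1, 420.6 and 379.6 (0.12 ± 0.10). The groups overlapped in all of these genes.

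ALDH11A3, the non-phosphorylating glyceraldehyde-3-phosphate dehydrogenase that supplies cytosolic NADPH, read 490.8, 499.2 and 450.3 in wild type and 437.1, 456.4 and 455.9 in sto2. It was the one ALDH with a lower mean in sto2, at -0.09 ± 0.07. ALDH3F1 read 298.1, 405.5 and 342.8 in wild type and 374.3, 357.0 and 317.8 in sto2, and its difference of 0.01 ± 0.13 turned to -0.09 without wild type replicate 1. ALDH22A1 read 73 to 86.4 in wild type and 75.9 to 91.7 in sto2, with a difference of 0.06 ± 0.09.

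None of the 14 GST genes passed either, and their median log2 difference was -0.03, with 6 positive and 8 negative differences. Only 7 of the 14 were above the controls on all arrays. The GST median was 0.01 without the dimmest 30% of probe sets and 0.02 without the dimmest 50%, so the signs show no direction for the class. The tau-class gene GSTU20 read 446.0, 840.2 and 597.2 in wild type and 1075.5, 838.3 and 1209.3 in sto2. Its protein has been linked in Arabidopsis to light and jasmonate signalling and to the glutathione step of aliphatic glucosinolate synthesis. The groups overlapped through wild type replicate 2 and sto2 replicate 2, which nearly coincide. The means were 628 ± 199 and 1041 ± 188 (SD, n = 3 each), a ratio of 1.66. The log2 difference of 0.75 ± 0.24 (SE) did not pass (limma adjusted p = 0.2503), and leaving out wild type replicates 1 or 2 gave 0.53 or 0.97.

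On chromosome 1 GSTU20 lies next to GSTU21, and GSTU22 and GSTU23 follow within a few genes. GSTU21 was above the controls on 0 arrays, with readings from 1.5 to 14.6. GSTU22 read 6.4 to 14.6 in wild type and 9.1 to 12.3 in sto2, and GSTU23 read 12.9 to 17.7 and 11.9 to 18.2. Both stayed around the control level, with log2 differences of 0.02 and 0.01. The difference between GSTU20 and these neighbours in response was not tested.

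GSTF4, a phi-class gene, leaned the other way. It read 60.6, 59.8 and 45 in wild type and 34.7, 35.0 and 31.2 in sto2, and the groups did not overlap. The means were 55.1 ± 8.78 and 33.6 ± 2.11 (SD, n = 3 each), a ratio of wild type over sto2 of 1.64. The log2 difference of -0.51 ± 0.11 (SE) did not pass (limma adjusted p = 0.126). The other phi gene, ATGSTF13, read 10.3 to 16.8 in wild type and 5.8 to 12.0 in sto2, around the control level.

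GSTU18 read 187.0, 292.8 and 249.3 in wild type and 182.4, 193.3 and 194.0 in sto2. The sto2 readings sat together near the lowest wild-type one, and the log2 difference was -0.31 ± 0.15 (limma adjusted p = 0.419). It was -0.48 when wild type replicate 1 was left out and -0.17 when replicate 2 was. GSTU28 read 17.0, 22.8 and 12.6 in wild type and 17.3, 11.1 and 3.3 in sto2. It was above the controls on all 3 wild-type arrays and on 2 of the 3 sto2 arrays. Its difference of -0.36 ± 0.21 ranged from -0.54 to -0.14 with 1 array left out, and was smallest when the low sto2 replicate 3 was omitted. The lambda-class gene GSTL3 read 630.2, 811.6 and 733.9 in wild type and 715.5, 617.9 and 758.9 in sto2, with a difference of -0.05 ± 0.12.

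Of the other tau genes, GSTU16 read 53.5, 91.4 and 70.6 in wild type and 87, 70.2 and 80.4 in sto2 (log2 difference 0.13 ± 0.16). GSTU27 read 72, 114.8 and 155.2 in wild type and 133.8, 101.9 and 120.1 in sto2 (0.10 ± 0.24). The sto2 readings of both lay inside the wild-type range. GSTU26 read 19.3 to 23.2 in wild type and 17.3 to 24.3 in sto2. Its direct neighbour GSTU25, which can conjugate the explosive TNT, was above the controls on 0 arrays, as was GSTU15.

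**Figure D4:**
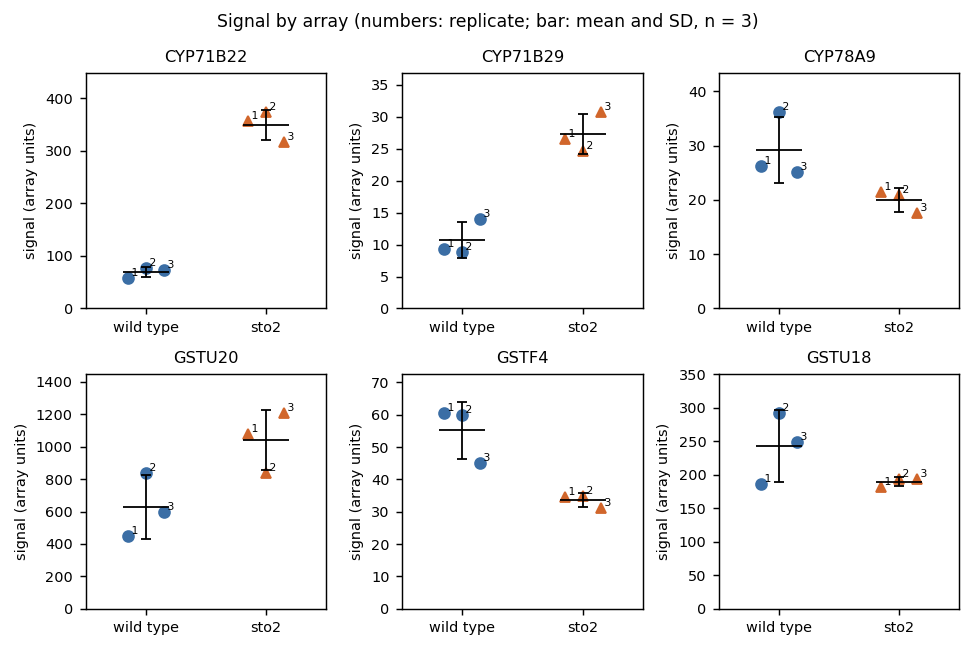
Signal on each array (linear axis from 0, array units) for CYP71B22, CYP71B29, CYP78A9, GSTU20, GSTF4 and GSTU18, with replicate numbers beside the points and bars for mean and SD of 3 arrays. In CYP71B22, CYP71B29, CYP78A9 and GSTF4 the genotypes do not overlap; only CYP71B22, at 70.1 against 349, passed over all probe sets.

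Wild type replicate 1 read low for many of the P450 and GST members above the controls. Among the 26 members above the controls on all arrays, it had the lowest of the 3 wild-type readings in 16, or 61.5%. Over all 14157 probe sets above the controls on all arrays the share was 36.9%. Replicate 1 was also the highest wild-type array in 38.4% of those probe sets, and in 6 of the 26 members. By class it was lowest in 8 of 11 genes of the CYP71 clan, 5 of 7 GSTs and 3 of 8 ALDHs. Class counts as uneven occurred among the sto2 arrays, where replicate 1 was lowest in 6 of the 8 ALDHs and replicate 2 in 5 of the 7 GSTs. The pattern in wild type replicate 1 was noticed after the values were seen and is given as a description. Between genotypes, 21 of the 26 members had positive and 5 had negative log2 differences, with a median of 0.10. Of the 14157 probe sets 7069 were positive and 7088 negative. The part of wild type replicate 1 in that lean was not tested. The mean of replicates 2 and 3 was 2.46 times replicate 1 for CYP71B26, 1.96 times for CYP71B28, 1.88 times for GSTU27 and 1.61 times for GSTU20. For CYP71B22 it was 1.28 times, small beside the difference between genotypes.

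The spread among wild-type arrays followed the same classes. The median SD of log2(signal + 16) over 3 wild-type arrays was 0.31 for the 7 GSTs above the controls on all arrays, 0.19 for the 11 CYP71 clan genes and 0.10 for the 8 ALDHs, against 0.14 over all probe sets above the controls. In sto2 the median SDs were 0.14, 0.13 and 0.08, against 0.10 over all probe sets. Without wild type replicate 1 the log2 difference of CYP71B26 went from 0.04 to -0.33 and that of CYP71B28 from 0.18 to -0.09. That of GSTU27 went from 0.10 to -0.16, and none of these passed with or without the array.

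**Figure D5:**
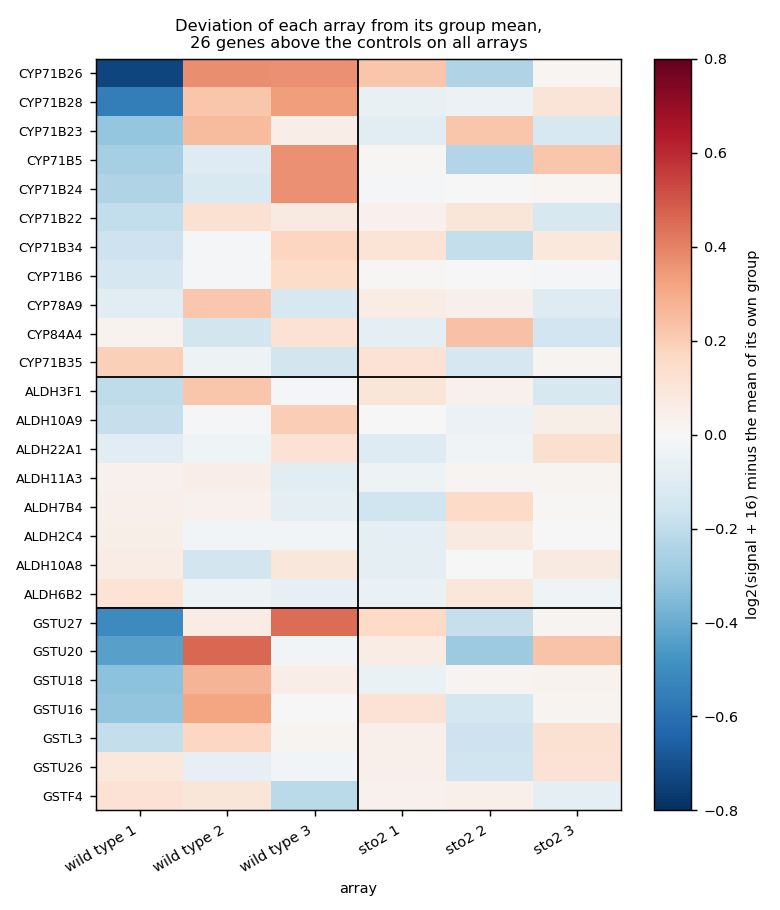
Deviation of log2(signal + 16) on each array from the mean of its own genotype, for the 26 genes above the controls on all arrays, with lines between CYP71 clan P450s, ALDHs and GSTs. Wild type 1 is the lowest wild-type array (blue) in 16 of the 26 genes, and the ALDH rows are the palest.

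Partners of these enzymes were looked up in 10 lists of pathway genes. Hormone P450s, cutin and wax P450s, P450 electron donors and TGA-type regulators had no gene among the named probe sets. The glucosinolate, phenylpropanoid, sterol and organ growth P450 lists were each represented by 1 gene, the members CYP79A2, CYP84A4, CYP51G2 and CYP78A9. Of the 5 measured list genes that are not members, 0 passed in either direction. The glutathione reductase genes GR, of the plastid and mitochondrial enzyme, and GR1, of the cytosolic one, had log2 differences of -0.13 ± 0.09 and 0.03 ± 0.09. AER, an alkenal reductase gene that removes reactive carbonyls, read 91.5 ± 9.94 in wild type and 104 ± 8.83 in sto2 (SD, n = 3 each), a difference of 0.16 ± 0.10. Both loci named NQR, AT3G27890 and AT1G49670, overlapped between genotypes, at -0.10 ± 0.09 and 0.18 ± 0.12.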

How the data were processed

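The deposited values were linear signal intensities with 1 decimal and look scaled per array, with array medians between 37 and 38.5. Whether the scaling used 1 factor per array was not tested. How probes were summarised into probe sets is not stated in the labels. Per the labels' protocols, an Affymetrix service provider labelled, hybridised and scanned total RNA isolated by column kit. The sample titles gave the genotype and the replicate number. The test left out 64 control probe sets of 22810. It used limma (version 3.58.1, in R 4.3.3) with lmFit and a 2-sided eBayes test on log2(signal + 16), a scale that understates folds of dim genes. The gene table pairs 13513 probe sets with 1 gene; 45 of 45 members matched a RefSeq locus of TAIR10.1, used for names and gene order only. The procedure was tested on simulated data. Members, lists and the control threshold were chosen with earlier results of these data known. Named genes were the calls, the 5 smallest p-values, the 4 highest means and the widest wild-type range in each class, and the chromosome 3 run; other members were added after their values were seen. Of the planned lists, LCR was left out because the symbol on the array is an F-box gene. Promoter and protein sequences were not used here. Alternatives were quantile normalization, median centring, dim-probe filters of 30% and 50%, a trend with robust prior, array weights, single-gene probe sets, pseudocounts of 1 and 64, the replicate block, and omission of each array in turn.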

Additional observations from a re-analysis of the deposited data

How the results depend on the processing

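CYP71B22 passed under 15 of 16 alternatives, with log2 differences from 1.62 to 2.31. The exception was the replicate block, which kept the difference at 2.09 with a limma adjusted p of 0.0826, so 0 members were called; over all probe sets it called 2. Same-numbered arrays correlated at -0.23, -0.14 and 0.07 in their deviations from the group means, and differently numbered ones at -0.18 to 0.27. The labels name no batch, and 3 arrays a group cannot show whether same-numbered samples were handled together. Without the dimmest 30% of probe sets 2 members were called as higher, the added one being CYP71B29, which stayed in only through its sto2 readings. Calls over all probe sets, 29 in the reported fit, were 147 and 227 without the dimmest 30% and 50%, 72 with a trend and robust prior, 70 with array weights, 6 over single-gene probe sets only, 17 and 83 with pseudocounts of 1 and 64, and from 5 to 22 with 1 array left out. The CYP71 clan median ran from 0.0066 to 0.15 with 1 array left out, highest without wild type replicate 3, the GST median from -0.0867 to 0.0048, and CYP51G2 moved to 0.19 with a pseudocount of 1. With 1 array left out, signs turned for ALDH3F1 (-0.0918 to 0.12), CYP71B26 (-0.33 to 0.22), CYP71B28 (-0.0945 to 0.35), CYP71B36 (-0.0730 to 0.11), GSTU27 (-0.16 to 0.32), ALDH10A8 (-0.0275 to 0.0904), GSTL3 (-0.15 to 0.0304) and ALDH22A1 (-0.000926 to 0.12), none of them called. With array weights ALDH3F1 was -0.0188, CYP71B26 -0.0872, CYP71B36 -0.0210 and GSTU27 -0.0231. The cause of these changes was not tested. Averaging a gene's probe sets or adding RefSeq synonyms repeated the values, since each member has 1 probe set and no gene was added. Readings at the control level bear no order.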

Other observations

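On the array, 2 further probe sets pair with several genes of which at least 1 carries a P450, ALDH or GST name, and they are given without names. One of them read 88.6, 165.2 and 183.6 in wild type and 158.7, 118.5 and 179.5 in sto2, lowest on wild type replicate 1 (log2 difference 0.09 ± 0.26 SE, limma adjusted p = 0.927). The other was above the bacterial controls on 0 arrays. BCAT4, a gene of aliphatic glucosinolate synthesis chosen after its values were seen, read 128.8, 655.1 and 298.5 in wild type and 927.8, 795.1 and 991.3 in sto2. Across the arrays of each genotype BCAT4 had the same order as GSTU20, which read 446.0, 840.2 and 597.2 and then 1075.5, 838.3 and 1209.3. The log2 difference of BCAT4 was 1.55 ± 0.50 (SE) and did not pass (limma adjusted p = 0.251).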
